A study of Mus musculus with 6 samples.

Results

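The genes described here are those that the deposited annotation places in the pathway terms Peroxisome or Fatty acid degradation and that it does not also place in branched-chain amino acid breakdown. Acyl-CoA synthetase (Acsl), peroxiredoxin (Prdx) and superoxide dismutase (Sod) genes, catalase and the mevalonate kinases Mvk and Pmvk were left out of the set. The rule used only the annotation and gene names, although it was chosen with earlier results of these data known. It gave 90 of the 21878 genes in the table. Of these, 63 carried only the peroxisome term, 23 only the fatty acid term and 4 carried both.

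Peroxisomes are small organelles with a single membrane that import folded enzymes from the cytosol. They shorten very long and branched fatty acids, start the synthesis of ether lipids and make and destroy hydrogen peroxide, while mitochondria burn most of the ordinary long-chain fatty acids after uptake as carnitine esters. The proteins that build the organelle are called peroxins (Pex genes), and many of the enzymes are targets of the PPAR family of lipid-sensing nuclear receptors in liver.

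RNA was sequenced at 72 h from NIH3T3, a mouse fibroblast line grown from embryos that divides without limit. Cells with a radiation injury that were given exosomes (small membrane vesicles, plasma-derived according to the title of the series) made up the tested condition, with 3 libraries. Cells with the same injury that were given PBS (phosphate-buffered saline) were the control, also with 3 libraries. All 6 libraries are from injured cells of 1 line, and an uninjured group was not analysed here. The labels give neither the radiation dose nor the source of the plasma, nor do they call the replicates separate cultures. The p-values therefore refer to the scatter among these libraries, part or all of which may be technical.

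Expression is given as FPKM (fragments scaled by transcript length and by library size), the unit in which the deposited per-library values are read here. Log2 changes are exosomes over PBS on log2(FPKM + 1) with their standard error (SE), and on this scale low genes change by less than their FPKM ratio. A gene was called raised or lowered where limma gave it an adjusted p (Benjamini-Hochberg) below 0.05. Between 10245 and 10271 genes reached 1 FPKM in the exosome libraries, against 10080 to 10161 in the PBS libraries. The authors' normalized counts, summed over genes, averaged 19824812 per exosome library and 20341541 per PBS library. Correlations across genes were 0.994 to 0.997 within groups and 0.977 to 0.985 between them. All 8 fibroblast markers looked for were expressed, of which 4 were raised, 2 lowered and the rest not called, and their summed level was 5968 to 6309 FPKM in exosome libraries and 5062 to 5195 FPKM in PBS libraries. Of 7 adipocyte markers, Lep and Cfd were at 0 in every library, and the sum of the list was 0.909 to 1.58 FPKM with exosomes and 1.503 to 3.94 FPKM with PBS. The 8 leukocyte markers, with Cd3e among those at 0, summed to 1.85 to 2.56 FPKM with exosomes and 3.47 to 4.83 FPKM with PBS. The 7 hepatocyte markers, with Ttr at 0, summed to 0.203 to 0.312 FPKM with exosomes and 0.148 to 0.389 FPKM with PBS. The 6 red cell markers, with Alas2 at 0, gave 0.699 to 2.02 FPKM with exosomes and 1.03 to 1.65 FPKM with PBS, and the 4 platelet markers, none at 0, gave 8.30 to 11.1 FPKM with exosomes and 6.35 to 8.90 FPKM with PBS. The part of these cell types in the results below was not tested.

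Most of the measurable genes were higher in exosome-treated cells, by small amounts. Of the 90 genes, 57 reached 1 FPKM in at least 3 libraries and were tested, and 31 of them were raised, 1 was lowered and 25 did not pass. Over all 10274 genes tested, 43.8% were called in either direction. Raised genes thus made up 54.4% of those tested, against 25.4% of all genes, and lowered genes 1.75%, against 18.4% of all genes. The low share of lowered genes depends in part on the genes left out by name. Among those, Acsl1, Acsl4, Acsl5 and catalase were lowered, while Acsl3 was raised and Acsl6 did not pass. The change was above 0 in 50 of the 57 and below 0 in 7, and the same split over all genes is not given here. The median log2 change was 0.18, against 0.04 over all genes tested. Among the raised genes the log2 change ran from 0.16 to 0.72 and the ratio of mean FPKM from 1.14 to 1.86, with 5 genes at a ratio of 1.5 or more. The 3 exosome values all lay above the 3 PBS values in 34 of the 57 (59.6%, against 32.0% of all genes), and all below them in 3 (5.26%, against 23.5% of all genes). In bulk RNA a change in the amount of a transcript per cell and a change in the share of cells that carry it cannot be told apart.

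**Figure D1:**
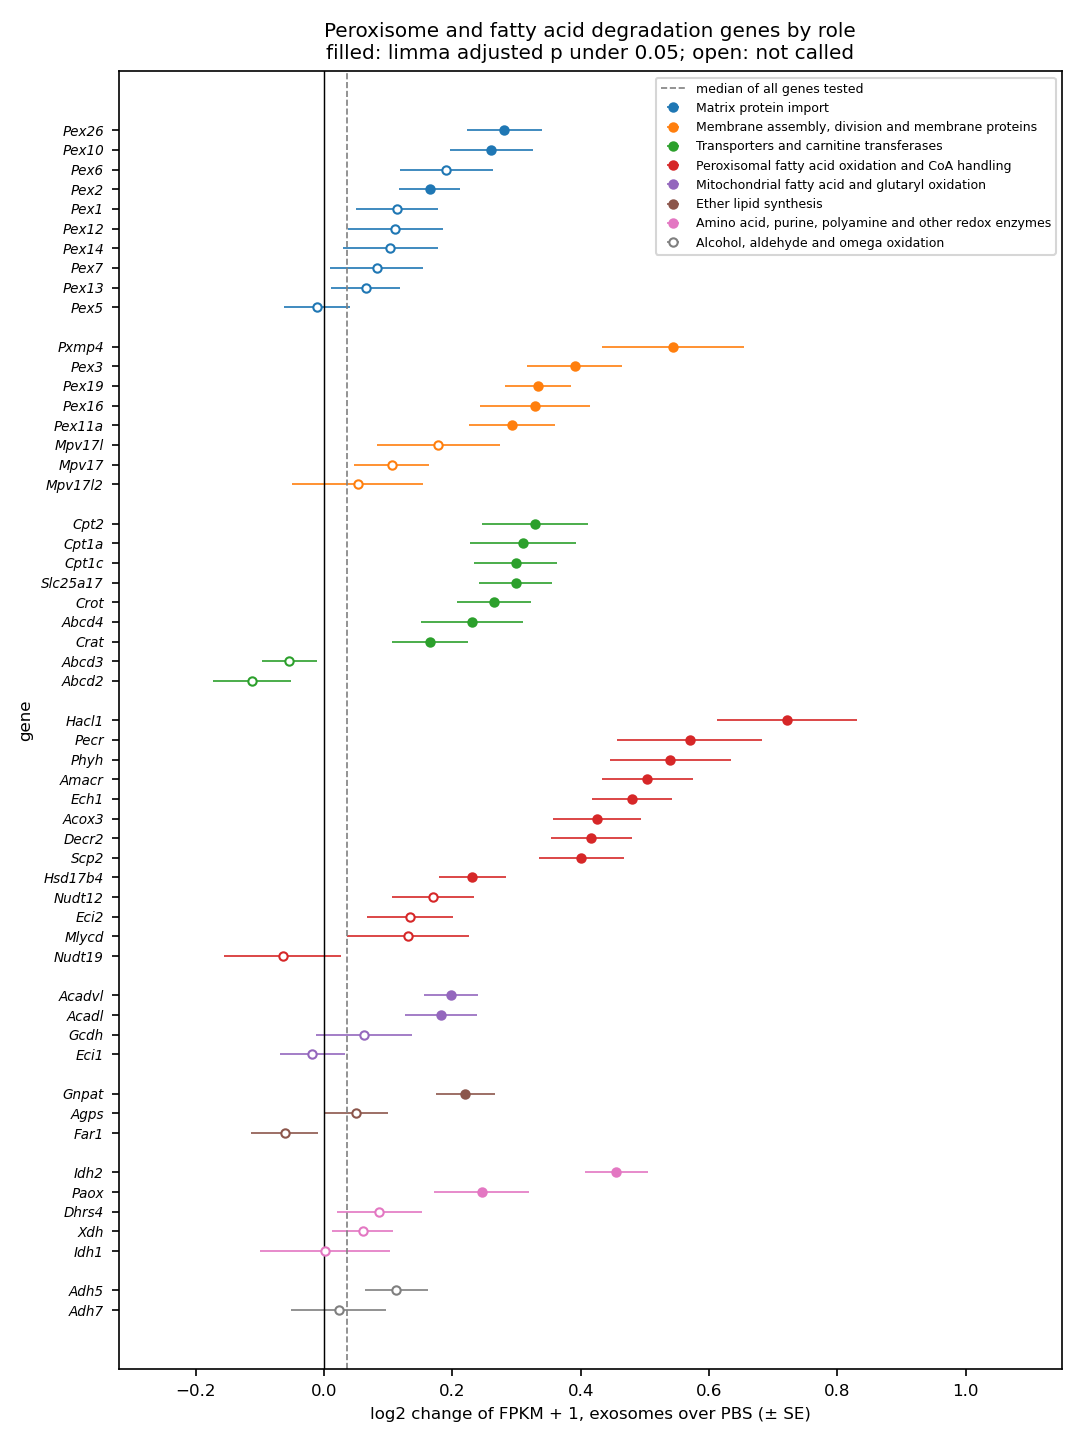
Log2 change of FPKM + 1, exosomes over PBS, with its standard error, for 54 of the 57 tested genes, grouped by role; filled points passed the limma threshold, and the dashed line is the median of all genes tested (0.04). Hacl1 has the highest change (0.72), and all filled points drawn lie above 0.

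The promoters of 4 raised genes are shown for their places in the pathway, chosen with the values known among genes that have a RefSeq window, and not for the smallest p: Phyh and Hacl1 act in succession on phytanic acid, Scp2 cleaves the products of branched-chain oxidation, and Pex3 is needed for the peroxisome membrane. The windows hold 250 bases before and 50 bases after the RefSeq transcription start in build GRCm38.p6, which is not the mm9 build named for the deposited files. They lie at chr2:4918746-4919045 (plus strand) for Phyh, chr14:31640916-31641215 (minus strand) for Hacl1, chr4:108118498-108118797 (minus strand) for Scp2 and chr10:13553093-13553392 (minus strand) for Pex3. Capitals mark AGGTCA, the hexamer that nuclear receptors of the PPAR and RXR families bind, or its reverse complement TGACCT.
Phyh: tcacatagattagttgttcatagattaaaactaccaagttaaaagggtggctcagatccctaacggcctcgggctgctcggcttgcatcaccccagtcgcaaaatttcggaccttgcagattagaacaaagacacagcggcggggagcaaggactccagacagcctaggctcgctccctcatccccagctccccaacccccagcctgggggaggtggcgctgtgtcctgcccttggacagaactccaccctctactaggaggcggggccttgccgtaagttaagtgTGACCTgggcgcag
Hacl1: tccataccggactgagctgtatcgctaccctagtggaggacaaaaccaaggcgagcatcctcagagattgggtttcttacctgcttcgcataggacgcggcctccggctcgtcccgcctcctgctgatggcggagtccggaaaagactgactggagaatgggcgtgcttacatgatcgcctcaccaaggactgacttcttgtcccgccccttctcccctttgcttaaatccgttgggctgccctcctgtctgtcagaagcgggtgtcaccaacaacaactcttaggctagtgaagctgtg
Scp2: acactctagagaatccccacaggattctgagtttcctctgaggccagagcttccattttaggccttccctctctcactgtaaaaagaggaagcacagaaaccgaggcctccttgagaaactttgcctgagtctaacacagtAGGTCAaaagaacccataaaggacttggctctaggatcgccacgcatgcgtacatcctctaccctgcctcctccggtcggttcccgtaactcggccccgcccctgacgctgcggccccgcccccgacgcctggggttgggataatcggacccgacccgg
Pex3: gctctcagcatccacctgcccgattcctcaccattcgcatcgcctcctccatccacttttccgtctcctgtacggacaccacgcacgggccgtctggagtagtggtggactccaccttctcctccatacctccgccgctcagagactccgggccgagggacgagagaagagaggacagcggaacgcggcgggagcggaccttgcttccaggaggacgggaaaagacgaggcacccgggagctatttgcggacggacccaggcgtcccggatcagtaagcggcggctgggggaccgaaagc
The Phyh and Scp2 windows each held 1 hexamer, and those of Hacl1 and Pex3 held 0. RefSeq windows matched 62 of the 90 genes by symbol, with 73 windows in all, since a gene can have several starts. The hexamer, on either strand, was in 12 of those 73 windows (16.4%), against 16.3% of 32851 windows of all genes. It was in 5 of 25 windows of raised genes (20%; Phyh, Scp2, Cpt1c, Cpt1a and Acadvl), in 0 of 24 windows of genes that were tested and not called, and in 7 of 24 windows of genes too low to be tested. The full PPAR element, in which the hexamer stands 2 times in the same direction with 1 base between, was in 0 of the 73 windows and in 0.0396% of all windows. The median GC content was 58% in windows of raised genes, against 62.3% for genes not called and 52.7% over all windows.

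Among the enzymes that oxidise fatty acids in the peroxisome and handle the acyl-CoA, 14 genes were tested. Of these, 9 rose (64.3%, against 25.4% of all genes), 1 fell (7.14%, against 18.4% of all genes) and 4 did not pass. Their median log2 change was 0.41. That median is the highest of the role groups. Summed over all 20 genes of the group, expression was 254, 234 and 244 FPKM in the exosome libraries and 185, 201 and 185 FPKM in the PBS libraries. The raised genes include the alpha-oxidation pair Phyh and Hacl1 and the branched-chain genes Amacr, Acox3, Hsd17b4 and Scp2. Beyond the 4 genes of smallest adjusted p in each role group, further genes are named here for their place in the same route, chosen after their values had been seen.

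Hacl1, the lyase that cleaves the hydroxylated acyl-CoA of alpha-oxidation, had 5.94, 4.89 and 5.79 FPKM with exosomes, against 2.70, 3.69 and 2.57 FPKM with PBS. All exosome values lay above all PBS values, and the log2 change was 0.72 ± 0.11 (limma adjusted p = 0.000851). The authors' deposited table gives it mean normalized counts of 343 with exosomes and 187 with PBS, a fold of 1.83 (adjusted p = 2.67e-07). Phyh, the hydroxylase that acts just before it and is mutated in Refsum disease, had 6.45, 5.08 and 6.51 FPKM with exosomes and 4.24, 3.43 and 3.78 FPKM with PBS. Its log2 change was 0.54 ± 0.09 (limma adjusted p = 0.00178), and the groups did not overlap.

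Amacr, the racemase that turns branched acyl-CoA into the form the oxidases accept, had 6.32, 6.85 and 6.30 FPKM with exosomes, against 4.19, 3.92 and 4.76 FPKM with PBS (log2 change 0.50 ± 0.07, limma adjusted p = 0.000507). The branched-chain oxidase gene Acox3 had 3.85, 3.77 and 3.91 FPKM with exosomes and 2.36, 2.87 and 2.59 FPKM with PBS (0.43 ± 0.07, adjusted p = 0.00107). In both genes every exosome library stood above every PBS library. Hsd17b4, the D-bifunctional protein that carries out the middle steps, averaged 25.8 ± 1.56 FPKM with exosomes and 21.8 ± 0.281 FPKM with PBS (SD, n = 3 each; limma adjusted p = 0.00598). Scp2, whose longer product is the thiolase of the route and whose shorter product moves sterols, was among the most abundant of these transcripts at 63.3 ± 2.45 FPKM with exosomes and 47.8 ± 4.58 FPKM with PBS (limma adjusted p = 0.00126). RefSeq lists 2 pseudogenes of Scp2 that could share its reads, so its level is uncertain. The plot of oxidation genes by library shows these steps side by side. Acox2, an oxidase gene that serves bile acid synthesis in liver, was at most 0.0508 FPKM in any library and was not tested.

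Among the further enzymes of this role group, Ech1, Decr2 and Pecr rose as well. Ech1, an isomerase of dienoyl-CoA, had 74.0, 66.7 and 72.6 FPKM with exosomes and 46.8, 54.2 and 51.2 FPKM with PBS (log2 change 0.48 ± 0.06, limma adjusted p = 0.000336). Decr2, the peroxisomal dienoyl-CoA reductase, had 9.44, 9.53 and 10.9 FPKM with exosomes and 6.94, 7.22 and 7.42 FPKM with PBS (0.42 ± 0.06, adjusted p = 0.000779). Pecr, an enoyl-CoA reductase, averaged 7.48 ± 0.541 FPKM with exosomes and 4.76 ± 0.946 FPKM with PBS (SD, n = 3 each; limma adjusted p = 0.00392). In these 3 genes the groups did not overlap. The enoyl-CoA isomerase gene Eci2 did not pass, at 16.9, 17.0 and 14.4 FPKM with exosomes and 15.0, 14.7 and 13.9 FPKM with PBS (adjusted p = 0.131). Without exosome replicate 3, the lowest of its group, Eci2 would be called raised (adjusted p = 0.0207). The other 3 uncalled genes were Nudt12 and Nudt19, which hydrolyse nucleotide cofactors, and Mlycd, malonyl-CoA decarboxylase, with log2 changes of 0.17, −0.06 and 0.13. Nudt12 would be called raised with neither a variance trend nor robust fitting (adjusted p = 0.0321).

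**Figure D2:**
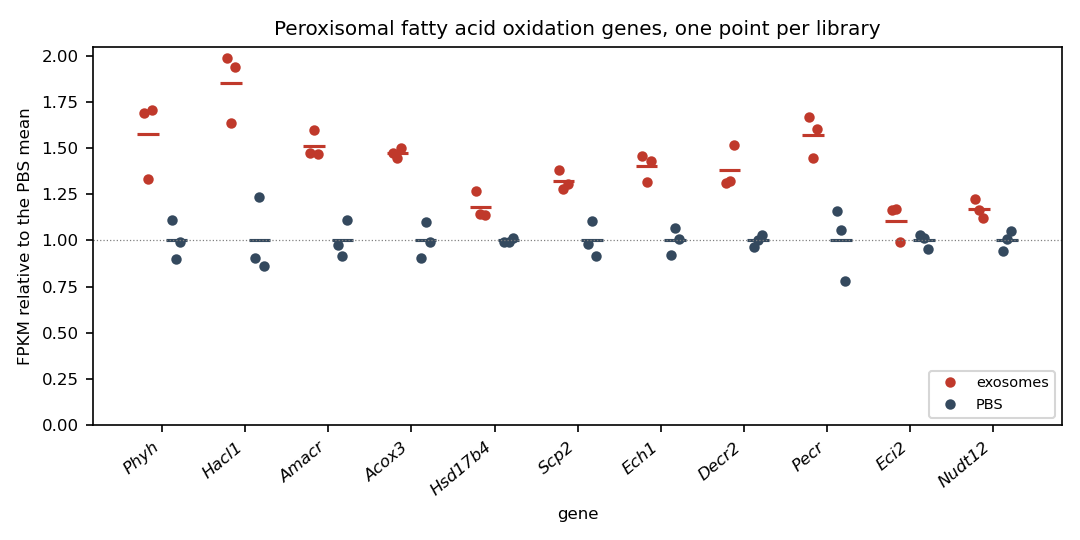
FPKM of 11 peroxisomal oxidation genes in each library, divided by the mean of the 3 PBS libraries of that gene; points are libraries, short bars are group means, and the dotted line marks the PBS mean. Exosome points lie above PBS points in Phyh, Hacl1, Amacr, Acox3, Hsd17b4, Scp2, Ech1, Decr2, Pecr and Nudt12, and among them in Eci2. The genes drawn are a selection: Nudt19 and Mlycd of the same role group, whose groups overlap, are not drawn. Over the 14 tested genes of the group, 10 had all exosome values above all PBS values, as did 32.0% of all genes.

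Of the peroxins and other membrane proteins that build and divide the organelle, 9 genes were tested. Among them 6 rose (66.7%, against 25.4% of all genes) and 0 fell (against 18.4% of all genes). Their median log2 change was 0.29. Summed over all 11 genes of the group, expression was 92.7, 90.8 and 92.3 FPKM in the exosome libraries, against 74.4, 79.5 and 73.0 FPKM in the PBS libraries. The 3 peroxins that insert membrane proteins all rose, against 25.4% of all genes. They are a part of this group, set apart after the values had been seen. Pex19, the soluble receptor for those proteins, had 23.2, 22.9 and 23.9 FPKM with exosomes, against 17.7, 19.5 and 17.7 FPKM with PBS (log2 change 0.33 ± 0.05, limma adjusted p = 0.000826). Pex3, its docking site in the membrane, had 11.7, 11.9 and 12.7 FPKM with exosomes and 8.75, 10.2 and 8.15 FPKM with PBS (0.39 ± 0.07, adjusted p = 0.00257). Pex16, which acts with Pex3 early in membrane formation, had 2.81, 2.52 and 3.13 FPKM with exosomes and 2.18, 2.20 and 1.75 FPKM with PBS (0.33 ± 0.09, adjusted p = 0.0125). The groups did not overlap in any of the 3, although the authors' deposited table does not call Pex16 (adjusted p = 0.0721).

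The division factor Pex11a, which elongates the membrane before fission, rose too, and had 3.83, 4.00 and 4.21 FPKM with exosomes and 2.91, 3.01 and 3.38 FPKM with PBS (log2 change 0.29 ± 0.07, limma adjusted p = 0.0066). Pex11g, of the same family, was too low for the limma test at 0.473, 0.559 and 0.462 FPKM with exosomes and 0.178, 0.259 and 0.185 FPKM with PBS. The authors' deposited table calls Pex11g raised, from mean normalized counts of 39.0 with exosomes and 16.7 with PBS (adjusted p = 0.004). Pxmp4, a peroxisomal membrane protein, had the highest change of the group, with 4.65, 4.57 and 4.92 FPKM with exosomes and 3.40, 3.26 and 2.21 FPKM with PBS (0.54 ± 0.11, limma adjusted p = 0.00411). Mpv17, a protein of the inner mitochondrial membrane that the annotation lists here, did not pass at 19.5 ± 1.23 FPKM with exosomes and 18.1 ± 0.866 FPKM with PBS (adjusted p = 0.17).

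Of the machinery that imports enzymes into the matrix, 3 of 10 tested genes rose (30%, near the 25.4% of all genes), 0 fell and 7 did not pass, with a median of 0.11. The shares raised in the import and membrane groups were not compared by a test. Pex26, the membrane anchor of the ATPase pair that pulls receptors back out, had 4.02, 4.07 and 4.12 FPKM with exosomes, against 3.31, 3.17 and 3.03 FPKM with PBS (log2 change 0.28 ± 0.06, limma adjusted p = 0.0041). Pex10 and Pex2, subunits of the ubiquitin ligase that marks receptors for recycling, rose by 0.26 ± 0.06 (adjusted p = 0.00933) and 0.16 ± 0.05 (adjusted p = 0.0195). The Pex10 call ended under quantile normalization (0.0603). The Pex2 call ended without exosome replicate 1 (0.0577) or PBS replicate 1 (0.0578). The authors' deposited table calls neither Pex10 (adjusted p = 0.362) nor Pex2 (0.143).

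The import receptor Pex5 was level, at 9.43, 9.40 and 9.99 FPKM with exosomes and 9.37, 9.72 and 9.97 FPKM with PBS (log2 change −0.01 ± 0.05, limma adjusted p = 0.879). Its docking partners Pex13 and Pex14 and the second receptor Pex7 had changes of 0.06, 0.10 and 0.08 with overlapping groups. Pex14 would be called raised without PBS replicate 2 (adjusted p = 0.0193). Pex6, an ATPase of the export pair, had 15.9, 14.6 and 16.2 FPKM with exosomes and 15.2, 12.8 and 12.7 FPKM with PBS (0.19 ± 0.07, limma adjusted p = 0.057). Without PBS replicate 1, the highest of its group, Pex6 would be called raised (adjusted p = 0.0132), and also with upper quartile scaling (0.0409) or quantile normalization (0.0347).

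**Figure D3:**
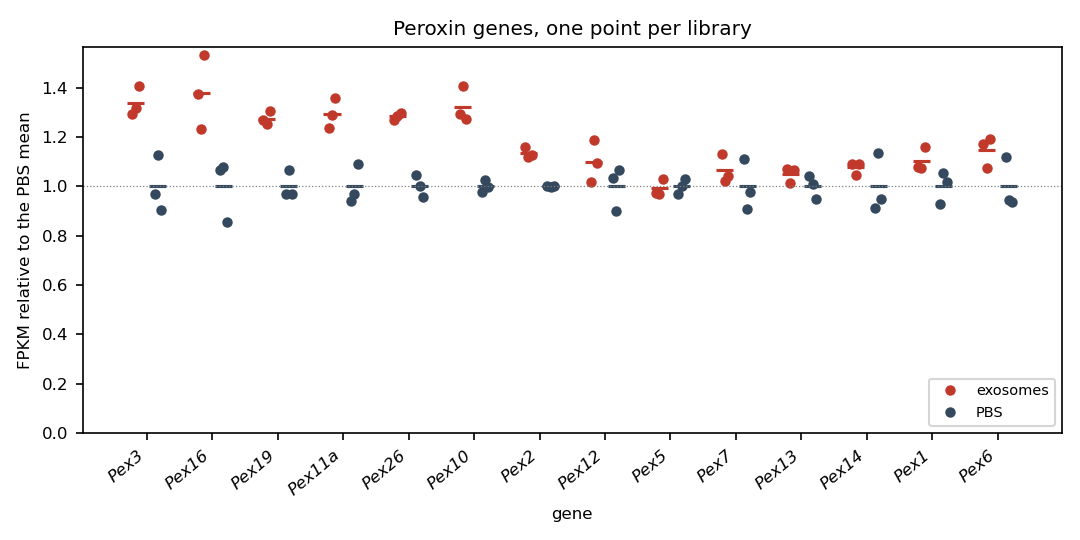
FPKM of 14 peroxin genes in each library, divided by the mean of the 3 PBS libraries of that gene; points are libraries and short bars are group means. The membrane and division peroxins on the left (Pex3, Pex16, Pex19, Pex11a) have all exosome points above all PBS points, while the receptors and docking peroxins Pex5, Pex7, Pex13 and Pex14 overlap.

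Transcripts of membrane transporters and carnitine acyltransferases were raised in 8 of 10 tested genes (80%, against 25.4% of all genes), with 0 lowered and a median log2 change of 0.28. The group covers import into and export out of peroxisomes, entry into mitochondria and 1 lysosomal transporter, Abcd4. The count fell to 6 without any one of the exosome libraries or PBS replicate 3, and to 7 without PBS replicate 1 or 2. Slc25a17, the peroxisomal carrier of CoA and other nucleotide cofactors, had 49.3, 50.7 and 53.3 FPKM with exosomes, against 42.6, 43.3 and 38.3 FPKM with PBS (0.30 ± 0.06, limma adjusted p = 0.00253). Abcd3, the importer of branched acyl-CoA into peroxisomes, did not pass and was at 23.4, 23.3 and 23.5 FPKM with exosomes and 24.4, 24.9 and 23.7 FPKM with PBS (−0.05 ± 0.04, adjusted p = 0.338). Abcd2, a related importer, also did not pass, at 3.14, 3.14 and 2.89 FPKM with exosomes and 3.50, 3.35 and 3.30 FPKM with PBS (−0.11 ± 0.06, adjusted p = 0.164). In both, all exosome values lay below all PBS values by a small margin, and quantile normalization would call Abcd2 lowered (adjusted p = 0.0214). Abcd4, which works in lysosomal vitamin export, rose by 0.23 ± 0.08 (limma adjusted p = 0.039). That call ended without any library other than PBS replicate 2 (adjusted p 0.0771 to 0.121), under quantile normalization (0.0889) and with no filter on low values (0.0788).

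All 5 tested carnitine acyltransferase genes rose, against 25.4% of all genes. They are a part of the transporter group, set apart after the values had been seen. Cpt1a and Cpt2, on the outer and inner mitochondrial membranes, pass long chains into mitochondria. Cpt1a averaged 29.5 ± 1.59 FPKM with exosomes and 23.7 ± 2.94 FPKM with PBS (SD, n = 3 each; limma adjusted p = 0.0139), and Cpt2 averaged 15.0 ± 0.781 FPKM with exosomes and 11.8 ± 1.51 FPKM with PBS (adjusted p = 0.0102). Cpt1c, a form known mainly from neurons, had 6.13, 5.82 and 5.85 FPKM with exosomes and 4.22, 4.95 and 4.76 FPKM with PBS (log2 change 0.30 ± 0.06, limma adjusted p = 0.00491). Crot, which exports shortened chains from peroxisomes as carnitine esters, had 8.22, 7.77 and 7.88 FPKM with exosomes and 6.70, 6.01 and 6.66 FPKM with PBS (0.27 ± 0.06, adjusted p = 0.00504). Crat, which does the same for acetyl groups, rose by 0.17 ± 0.06 (limma adjusted p = 0.0449), a call that ended without any library other than PBS replicate 1 (adjusted p 0.0751 to 0.127), under quantile normalization (0.11) and with no filter (0.0643). The authors' deposited table calls Crot and Cpt2 raised (adjusted p = 0.00256 and 0.0269) but not Cpt1a (0.0577), Cpt1c (0.153) or Crat (0.266). Cpt1b, the muscle form, averaged 0.781 FPKM with exosomes and 0.839 FPKM with PBS and was not tested.

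Of the 4 mitochondrial enzymes of the set, 2 rose (50%, against 25.4% of all genes). These were Acadvl and Acadl, the acyl-CoA dehydrogenases for very long and long chains. Acadvl had 33.7, 33.9 and 34.1 FPKM with exosomes, against 29.0, 29.1 and 30.2 FPKM with PBS (log2 change 0.20 ± 0.04, limma adjusted p = 0.00454). Acadl had 32.8, 35.2 and 34.0 FPKM with exosomes and 29.8, 31.9 and 27.9 FPKM with PBS (0.18 ± 0.06, adjusted p = 0.0247). The Acadl call ended without exosome replicate 2 (0.0874), exosome replicate 3 (0.0613), PBS replicate 1 (0.0685) or PBS replicate 3 (0.0779), and with no filter on low values (0.0533). The authors' deposited table calls neither Acadvl (adjusted p = 0.106) nor Acadl (0.0729). The enoyl-CoA isomerase gene Eci1 was at 29.2, 28.8 and 30.5 FPKM with exosomes and 29.6, 28.5 and 31.7 FPKM with PBS (limma adjusted p = 0.794), and Gcdh, glutaryl-CoA dehydrogenase, had a change of 0.06 (adjusted p = 0.516).

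In ether lipid synthesis, the pathway to plasmalogens, 1 of 3 tested genes rose (33.3%, near the 25.4% of all genes). Gnpat, which attaches the first acyl chain inside the peroxisome, had 18.4, 18.8 and 19.2 FPKM with exosomes, against 16.2, 16.3 and 15.5 FPKM with PBS (log2 change 0.22 ± 0.05, limma adjusted p = 0.00427). Agps, which exchanges that chain for a fatty alcohol, was at 11.9 ± 0.262 FPKM with exosomes and 11.5 ± 0.483 FPKM with PBS (SD, n = 3 each; limma adjusted p = 0.439). Far1, which makes the alcohol, was at 21.5, 21.2 and 20.2 FPKM with exosomes and 21.7, 20.9 and 23.2 FPKM with PBS (adjusted p = 0.363).

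Among the other enzymes 2 of 5 tested redox genes rose (40%, against 25.4% of all genes). Neither of the 2 tested alcohol dehydrogenase genes passed, where 43.8% of all genes were called in either direction. Idh2, the mitochondrial isocitrate dehydrogenase that supplies NADPH, had 69.3, 68.9 and 70.6 FPKM with exosomes, against 51.6, 52.7 and 47.2 FPKM with PBS. It had the smallest adjusted p of the set (log2 change 0.46 ± 0.05, limma adjusted p = 0.000122), and the authors' deposited table gives a fold of 1.35 (adjusted p = 3.97e-11). Idh1, its counterpart in cytosol and peroxisomes and the most abundant transcript of the set, was at 154.2, 136.4 and 131.4 FPKM with exosomes and 134.3, 124.7 and 164.6 FPKM with PBS, with overlapping groups (0.00 ± 0.10, adjusted p = 0.991). Paox, a polyamine oxidase, had 2.24, 2.15 and 2.49 FPKM with exosomes and 1.97, 1.63 and 1.73 FPKM with PBS (0.25 ± 0.07, adjusted p = 0.0229). The Paox call ended without exosome replicate 3 (0.0858), PBS replicate 2 (0.0623) or PBS replicate 3 (0.0531) and under quantile normalization (0.0911), and Paox shares exon sequence with Echs1 on the opposite strand. Xdh, xanthine dehydrogenase, averaged 74.9 ± 2.85 FPKM with exosomes and 71.7 ± 2.65 FPKM with PBS (SD, n = 3 each; adjusted p = 0.323). Adh5, which clears formaldehyde with glutathione, was at 47.6, 45.1 and 50.1 FPKM with exosomes and 43.9, 43.1 and 44.6 FPKM with PBS (adjusted p = 0.0843, and 0.0466 without exosome replicate 2).

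The 33 genes that were not tested include 15 at 0 in every library: Adh4, 8 Cyp4a genes of omega-oxidation, Dao, Eci3, Far2, Hao2, Nos2 and Pex5l. The other 18 averaged at most 0.836 FPKM over the 6 libraries. Among them Nudt7, a peroxisomal CoA diphosphatase, had 0.595, 0.564 and 0.654 FPKM with exosomes and 0.283, 0.347 and 0.306 FPKM with PBS, and the authors' deposited table calls it raised at a fold of 1.91 (adjusted p = 3.3e-05). That table also calls Ddo, D-aspartate oxidase, raised (adjusted p = 0.0113), from mean normalized counts of only 8.12 with exosomes and 0.704 with PBS. Pxmp2, a pore protein of the peroxisome membrane, was at 1.30, 0.929 and 0.756 FPKM with exosomes and 0.290, 0.357 and 0.224 FPKM with PBS, from 21.7 and 10.4 mean normalized counts, and the deposited table does not call it (adjusted p = 0.0894). With no filter on low values limma calls Pxmp2 raised (adjusted p = 0.00673), and likewise Nudt7 (0.00306) and Pex11g (0.00321).

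The authors' deposited comparison, made on counts, gave the same direction for the genes it called. It lists an adjusted p for 75 of the 90 genes and calls 24 raised (32%, against 12.4% of the 15844 genes it lists) and 1 lowered (1.33%, against 13.5%). Of the 31 genes raised in the FPKM test, 21 are raised in that table. The 3 genes raised in the table alone are Pex11g, Nudt7 and Ddo. Ratios of mean FPKM exceeded the folds from counts in 51 of the 57 tested genes (89.5%, against 90.7% of all tested genes), by a median of 0.04 on the log2 scale (0.05 over all genes). Over all genes the share of calls that were raised was 58% with FPKM and 47.9% in the deposited table.

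**Figure D4:**
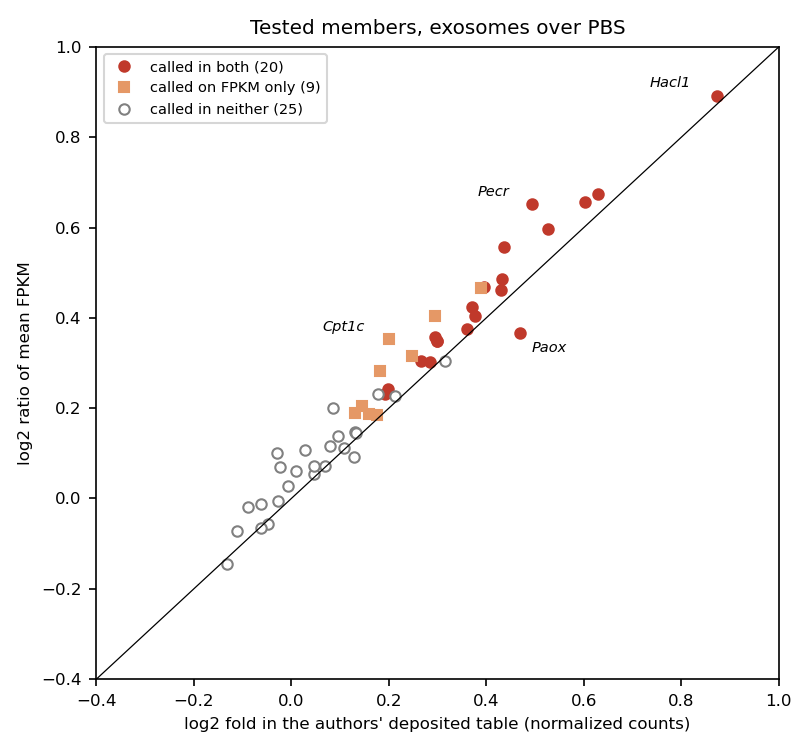
Log2 ratio of mean FPKM (vertical) against the log2 fold of the authors' deposited table (horizontal), exosomes over PBS, for 54 of the 57 tested genes; the line marks equal values. The 20 genes drawn that were called in both include Hacl1 at the top, 9 were called on FPKM only, and 48 points lie above the line.

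Neighbouring genes of the same pathways were described from lists written for these terms. Of 21 tested fatty acid oxidation genes that the selection rule leaves to other terms, 12 rose (57.1%, against 25.4% of all genes), 4 fell (19%, near the 18.4% of all genes) and 5 did not pass (median log2 change 0.17). The calls of Acat1, Acat2 and Aldh9a1 among the 12 ended in leave-one-out fits (highest adjusted p 0.153, 0.118 and 0.0999, without PBS replicate 3, PBS replicate 1 and exosome replicate 3), and the leave-one-out fits raised 9 to 12 of the list. Acadm, the medium-chain acyl-CoA dehydrogenase, averaged 39.2 ± 1.04 FPKM with exosomes and 25.7 ± 2.02 FPKM with PBS (SD, n = 3 each; limma adjusted p = 7.16e-05). Hadh, which acts later in the mitochondrial cycle, averaged 42.5 ± 2.61 FPKM with exosomes and 34.4 ± 1.40 FPKM with PBS (adjusted p = 0.00228). The 4 that fell were the acyl-CoA synthetase genes Acsl1, Acsl4 and Acsl5, which activate fatty acids, and catalase. The synthetase genes did not move as a family: Acsl3 averaged 52.8 ± 3.46 FPKM with exosomes and 44.8 ± 1.06 FPKM with PBS and rose (SD, n = 3 each; limma adjusted p = 0.00681). Acsl6, at 1.14 ± 0.150 FPKM with exosomes and 0.840 ± 0.102 FPKM with PBS, did not pass (adjusted p = 0.0533), although the authors' deposited table calls it raised (0.0185). Catalase (Cat), which breaks down the peroxide made by acyl-CoA oxidases, averaged 18.3 ± 0.702 FPKM with exosomes and 22.2 ± 1.23 FPKM with PBS (−0.27 ± 0.05, limma adjusted p = 0.00365).

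Of 8 tested genes of electron transfer and carnitine supply, 5 rose (62.5%, against 25.4% of all genes) and 0 fell (median 0.23). Without exosome replicate 3 only 3 rose, since the calls of Etfb (adjusted p = 0.0701) and Slc22a5 (0.123) ended, and the authors' deposited table calls neither (0.228 and 0.245). Acad10, an acyl-CoA dehydrogenase relative, averaged 2.22 ± 0.123 FPKM with exosomes and 1.21 ± 0.175 FPKM with PBS (SD, n = 3 each; limma adjusted p = 0.000507), and Etfdh, which hands electrons from the dehydrogenases to the respiratory chain, averaged 17.5 ± 0.888 FPKM with exosomes and 14.7 ± 0.127 FPKM with PBS (adjusted p = 0.00498). Of 20 tested genes linked to peroxisomes outside the pathway terms, 9 rose (45%, against 25.4% of all genes) and 0 fell (median 0.13). The calls of Acbd5, Usp30 and Zadh2 ended without exosome replicate 1, PBS replicate 1 or PBS replicate 2, each of which left 6 raised. Hsdl2, a peroxisomal dehydrogenase-like protein, averaged 12.0 ± 0.855 FPKM with exosomes and 8.45 ± 0.277 FPKM with PBS (adjusted p = 0.000327), and Lonp2, the peroxisomal Lon protease, averaged 16.0 ± 0.292 FPKM with exosomes and 13.0 ± 0.4999 FPKM with PBS (adjusted p = 0.00138). The fission genes shared with mitochondria, Dnm1l, Fis1 and Mff, did not pass, with changes of −0.04, 0.04 and 0.07. That list also holds Fam134b, an ER-phagy receptor with no established peroxisomal role, and Rhoc, a small GTPase, which both rose.

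Of 10 tested regulators and PPAR targets, 3 rose (30%, against 25.4% of all genes), 4 fell (40%, against 18.4%) and 3 did not pass. The median of 0.04 equals that of all genes, and the share raised is near the background. Only 2 of the list fell without exosome replicate 2, exosome replicate 3 or PBS replicate 1. The receptor genes Ppara and Pparg averaged 0.00418 and 0.0148 FPKM with exosomes, against 0.00427 and 0.0426 FPKM with PBS, too low to be tested. Ppard averaged 11.8 ± 0.0515 FPKM with exosomes and 16.1 ± 0.519 FPKM with PBS and fell (SD, n = 3 each; log2 change −0.42 ± 0.05, limma adjusted p = 0.000133). Ucp2, a mitochondrial carrier, averaged 20.1 ± 1.08 FPKM with exosomes and 14.1 ± 0.647 FPKM with PBS and rose (adjusted p = 0.000172). Pdk4, which limits pyruvate oxidation, averaged 27.6 ± 1.08 FPKM with exosomes and 21.3 ± 3.04 FPKM with PBS and rose (adjusted p = 0.00976). Angptl4, an inhibitor of lipoprotein lipase, averaged 10.5 ± 0.724 FPKM with exosomes and 15.1 ± 2.51 FPKM with PBS and fell (adjusted p = 0.00738). The other calls were less stable: those of Fabp4 and Fabp5, fatty acid binding proteins that fell, and of Rxra, the PPAR partner receptor, which rose, ended in leave-one-out fits. The highest adjusted p was 0.0902 for Fabp4 (without exosome replicate 3), 0.132 for Fabp5 (without exosome replicate 2) and 0.134 for Rxra (without PBS replicate 1). The authors' deposited table calls neither Fabp4 (adjusted p = 0.114) nor Fabp5 (0.162) nor Rxra (0.571). Fabp4 was at 1.09, 0.717 and 0.799 FPKM with exosomes and 2.21, 1.25 and 3.54 FPKM with PBS, so it passed the filter through its PBS values. The Fabp5 groups overlapped.

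**Figure D5:**
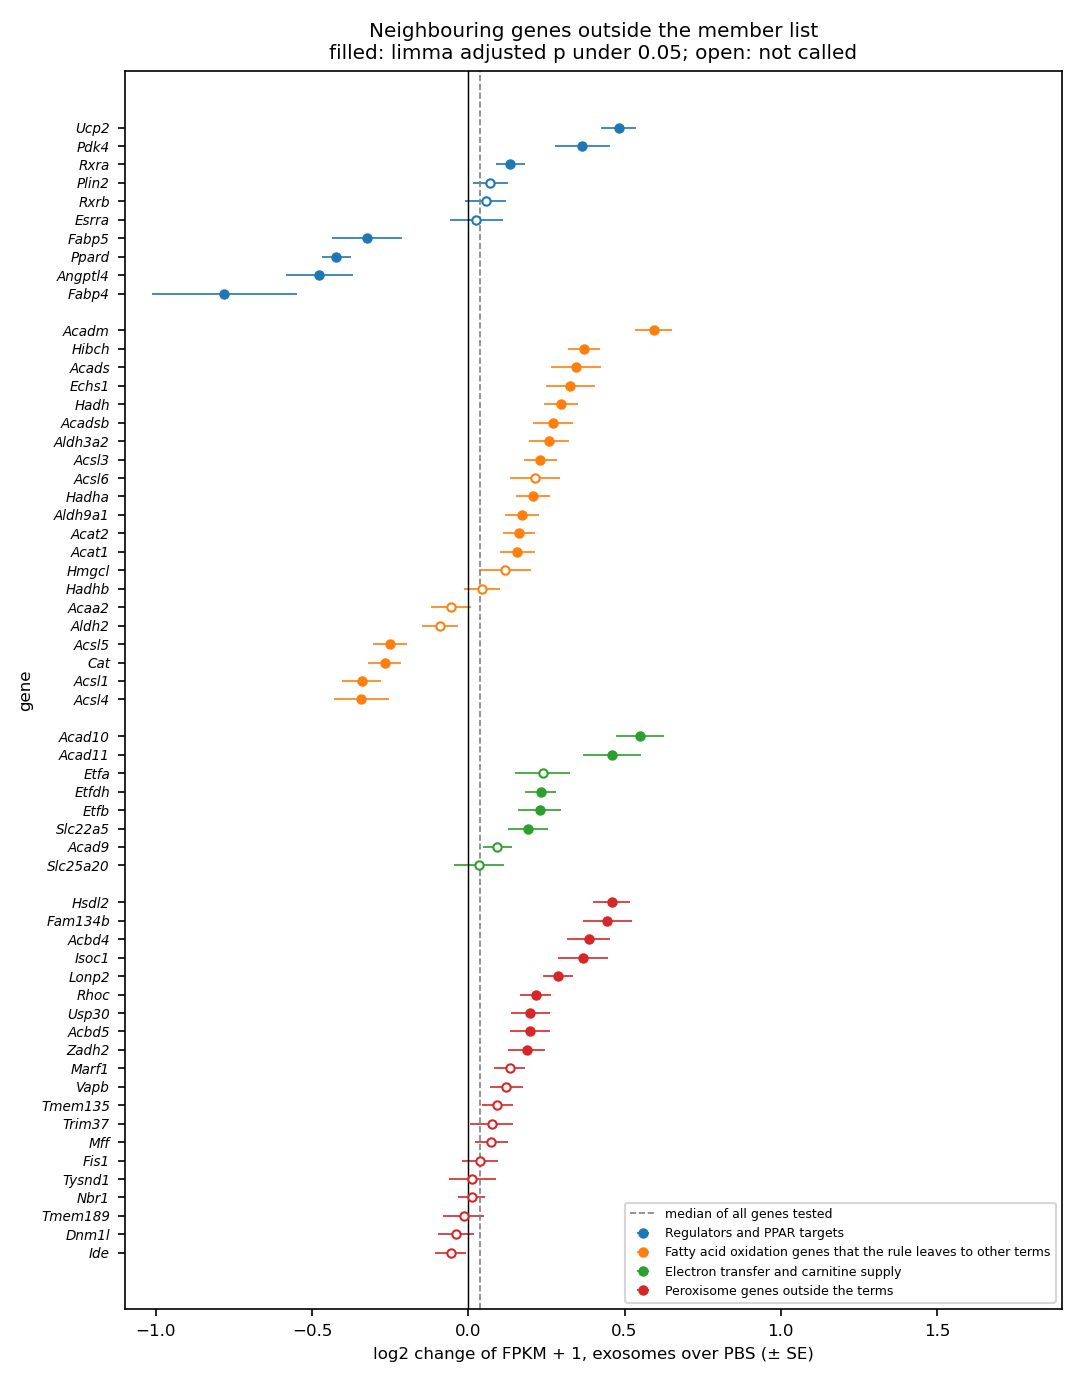
Log2 change of FPKM + 1, exosomes over PBS, with its standard error, for the tested genes of the 4 neighbouring lists; filled points passed the limma threshold, and the dashed line is the median of all genes tested. Filled points to the left of 0 are in the PPAR list (Fabp5, Ppard, Angptl4, Fabp4) and among the genes left to other terms (Acsl5, Cat, Acsl1, Acsl4).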

How the data were processed

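The submitters' processing notes list the mm9 build and these tools, with no version, order or role: DESeq, HTSeq, Cufflinks, StringTie, HISAT2, Bowtie2, SAMtools, Trimmomatic. Per library the authors deposited expression values read here as FPKM: the headers say only expression, and the unit was inferred from Cufflinks in the notes and from unequal column sums. Per the file headers, the same table holds the authors' mean normalized count signal of each group, their linear fold change (a ratio), and p-values with adjusted p-values. Counts per library were not in the columns used, so no count model was fitted. Columns were assigned to libraries by the sample number each label carries, and no library duplicated another (0 identical pairs). In 27 rows a gene name had become a date, and it was repaired through its Entrez identifier.

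Genes that reached 1 FPKM in at least 3 libraries were tested on log2(FPKM + 1) with limma 3.58.1 in R 4.3.3 (variance trend, robust, group as the only term, two-sided), with Benjamini-Hochberg adjustment over all 10274 genes. The fit was tested on simulated data with independent noise and 200 changed genes. Far more genes were called in the data, so that test did not measure the error rate of these calls. In each role group, up to 4 called genes of smallest adjusted p and the most abundant uncalled gene were to be named. In the other lists, examples are genes of small adjusted p, chosen after their values were seen. The genes, role groups and lists were chosen with earlier results of these data known. Alternatives were the pseudocount, the filter, upper quartile and quantile scaling, the variance model, the deposited comparison, each library left out, and a replicate block. The strand setting of the counting is not given in the sources at hand. In GENCODE M21, exons of 25 of the 57 tested genes overlap another gene, in 23 of them on the opposite strand, so their values are uncertain. Values of 3 tested genes are not reported here; they stay in the counts.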

Additional observations from a re-analysis of the deposited data

How the results depend on the processing

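Over all the alternatives run, 21 to 32 of the genes were raised (31 as reported) and 1 was lowered, except that quantile normalization lowered 2, Abcd2 being the gene added. The 21 belong to the filter at 5 FPKM, which tests fewer genes. The leave-one-out fits raised 26 to 30 and lowered 1, and called 3452 to 4469 of all genes (4501 as reported). Of 32 called genes, 25 kept their call in every limma fit that tested them, and 6 (Abcd4, Acadl, Crat, Paox and Pex2 among them) lost it in at least 1 leave-one-out fit. The median change of all genes stayed between 0.01 and 0.04 on the log2 scale under every limma setting.

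The titles give both groups replicate numbers 1 to 3 and do not say whether libraries of the same number belong together. Deviations from the group means correlated at −0.12, −0.02 and −0.29 between libraries of the same number. Between libraries of different numbers the correlations ran from −0.19 to 0.29. With 3 libraries per group these values cannot decide whether the libraries were paired. With the replicate block 28 genes were raised and 1 lowered (3914 of all genes called), and the calls of Abcd4, Crat and Pex2 ended, as did those of Rxra, Acat1, Acat2, Aldh9a1, Slc22a5, Acbd5, Usp30 and Zadh2 in the neighbouring lists. The filter at 1 FPKM, not a test of depth, left 33 genes out. With no filter 31 were raised, 28 of them among the 31 reported, and the 3 added were Nudt7, Pex11g and Pxmp2. The depth of single libraries is unknown.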
